A study of Mus musculus with 24 samples.

Results

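Nfkbil1, Tab3, Gpr65, Sting1 and Isg15 are 5 genes of innate immune signalling, among 8726 genes named on a spotted mouse array that was hybridised with liver RNA. They were picked by name, through the platform's annotation table, and each is read by 1 probe. The choice used measured values of these same arrays. Nfkbil1 and Gpr65 had been singled out at 18 h and Tab3 at 72 h for positive ratios with small p-values, so those values are given as a description without a test. No comparison is named for Sting1 and Isg15, and their ratios are also given as a description.

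The tumor group was male C57Bl/6 mice, 8 weeks old, that received 1000000 LL/2(LLC1) cells under the skin in 300 µl of phosphate-buffered saline (PBS). LL/2(LLC1) is the Lewis lung carcinoma line, which grows as a transplanted tumor in this strain. The PBS group was mice of the same strain, sex and age that received 300 µl of PBS alone, and each time point had its own PBS group. Livers were taken by decapitation of the mice at 18, 72 and 192 h. Each time point had 4 pairs of a tumor RNA and a PBS RNA, and each pair was hybridised on a second array with the Cy3 and Cy5 dyes exchanged, which gave 24 arrays. The labels do not say whether a sample was a single animal, so the spread between pairs may be partly technical. All values are of whole liver, in which fewer cells of a type and less RNA per cell cannot be told apart.

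The 5 genes act at different points in or around innate signalling that involves the transcription factors NF-κB and IRF3, and they do not form a single pathway. Gpr65 is a proton-sensing receptor of immune cells that raises cyclic AMP, and Sting1 is the adaptor in the endoplasmic reticulum that relays cytosolic DNA through TBK1 to IRF3. Tab3 binds ubiquitin chains and activates the kinase TAK1 upstream of NF-κB, Nfkbil1 resembles the IκB proteins that hold NF-κB back, and Isg15 is a ubiquitin-like modifier that interferons induce. In the liver, Kupffer cells, other leukocytes and hepatocytes can all use parts of these pathways.

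Nfkbil1 had the highest of the 15 mean ratios of these genes by time, a deposited log2 ratio of 0.35 at 18 h, and was near 0 at 72 h. A ratio here is the authors' log2 ratio, likely tumor over PBS. The files do not state the direction. It rests on the order of the 2 scanned channels, read as Cy3 and then Cy5 as in the labels, and on the usual order of treated over control. If it ran the other way, every sign below would turn. Gpr65 was positive in both measured pairs at 18 h and negative in all 3 at 72 h. Tab3 was positive at 18 and 72 h and negative at 192 h. Sting1 stayed within 0.10 of 0 in every complete pair, and Isg15 averaged between 0.03 and 0.13. No gene passed a test of tumor against PBS at an adjusted p of 0.05 at any time. Only Nfkbil1 had enough complete pairs to enter the main test across probes. In 2 of the 5, the deposited ratios depended on which dye the tumor RNA carried.

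**Figure D1:**
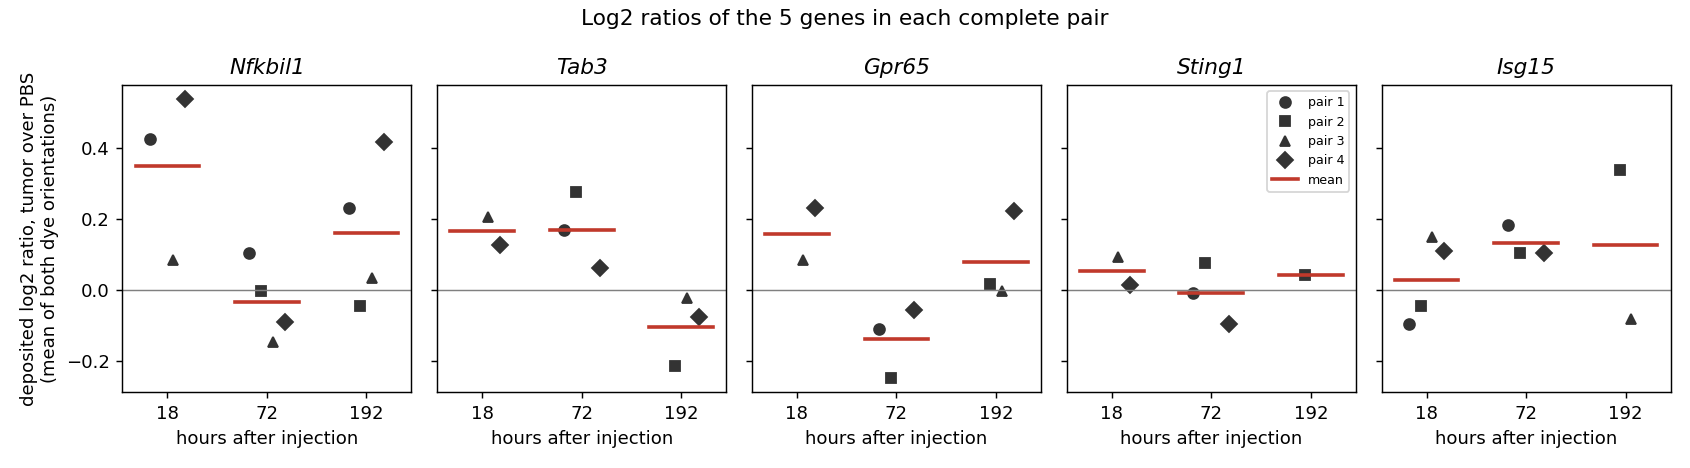
Each point is 1 pair of a tumor RNA and a PBS RNA, placed at its time in hours. Its height is the deposited log2 ratio of tumor over PBS, averaged over both dye orientations. Red bars are means of the complete pairs. Nfkbil1 at 18 h lies above 0 in 3 of 3 pairs with a mean of 0.35, Gpr65 lies above 0 at 18 h and below 0 at 72 h, and Tab3 lies below 0 at 192 h.

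The arrays held very different numbers of measured spots. The deposited table has between 977 and 8894 ratios per array, and its array medians lay between -0.03 and 0.01. Few probes were measured in both orientations of every pair, with a median of 4 complete pairs of 12 over all probes. Across all complete pairs, 49.2% of the ratios had the same sign in both orientations. The correlation of the 2 arrays of a pair was below 0 in 9 of 12 pairs, and the lowest was -0.42 in pair 3 at 192 h. Nfkbil1 was complete in 11 of 12 pairs, Isg15 in 9, Tab3 and Gpr65 in 8 each and Sting1 in 6. Nfkbil1 alone was measured in both orientations of at least 3 of 4 pairs at each time, the condition for the test across probes. The other 4 did not enter it.

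Of the 1362 probes tested with limma, 0 passed an adjusted p of 0.05 at 18, 72 or 192 h or in the differences of 72 or 192 h from 18 h, which is 0% in each comparison. At an unadjusted p under 0.05 there were 97 probes at 18 h (7.12%), 71 at 72 h (5.21%) and 50 at 192 h (3.67%). The median of all tested probes was -0.01 at each of the 3 times, so ratios of the 5 genes can be read against 0.

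The receptor Gpr65 gave deposited log2 ratios of 0.08 in pair 3 and 0.23 in pair 4 at 18 h. At 72 h it gave -0.11, -0.25 and -0.06 in pairs 1, 2 and 4. At 192 h pairs 2, 3 and 4 gave 0.02, -0.0036 and 0.22. Each complete pair was positive at 18 h, and all 3 were negative at 72 h, as they were for 16% of all probes with at least 3 complete pairs there. The pairs of 192 h lay between and among those of the other times. Of 4978 probes with at least 2 complete pairs at 18 and at 72 h, 2.87% were positive in each pair of 18 h and negative in each of 72 h. The mean ratio was 0.16 ± 0.10 at 18 h (SD, n = 2), -0.14 ± 0.10 at 72 h (SD, n = 3) and 0.08 ± 0.12 at 192 h (SD, n = 3). In the 6 complete pairs of 72 and 192 h, which had no part in its choice, 2 ratios were positive and the mean was -0.03 ± 0.16 (SD). That mean did not differ from 0 by an exact two-sided sign-flip permutation test (p = 0.594, where the smallest p possible is 0.031).

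Sting1, the adaptor of cytosolic DNA sensing, gave 0.09 and 0.01 in pairs 3 and 4 at 18 h. It gave -0.01, 0.07 and -0.10 in pairs 1, 2 and 4 at 72 h. The only complete pair at 192 h, pair 2, gave 0.04. Positive and negative pairs stood side by side at 72 h, and both pairs of 18 h were just above 0. The means were 0.05 ± 0.06 at 18 h (SD, n = 2) and -0.01 ± 0.09 at 72 h (SD, n = 3), and the value at 192 h has no replicate.

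Tab3, the TAK1-binding protein, gave 0.20 and 0.13 in pairs 3 and 4 at 18 h. At 72 h it gave 0.17, 0.28 and 0.06 in pairs 1, 2 and 4. At 192 h pairs 2, 3 and 4 gave -0.22, -0.02 and -0.08. Every pair of 18 and 72 h was positive and every pair of 192 h negative. With at least 2 complete pairs at each time, 3.17% of 3063 probes were positive in each pair of 18 h and negative in each of 192 h, and 2.85% of 3055 were so for 72 and 192 h. Of all probes with at least 3 complete pairs, 9.03% were positive in each pair at 72 h and 8.13% negative in each at 192 h. The mean ratio was 0.16 ± 0.06 at 18 h (SD, n = 2), 0.17 ± 0.11 at 72 h (SD, n = 3) and -0.11 ± 0.10 at 192 h (SD, n = 3). In the 5 complete pairs of 18 and 192 h, which had no part in its choice, the mean was 0.0028 ± 0.17 (SD) with 2 ratios positive. The exact two-sided sign-flip permutation test gave p = 1, and with 5 pairs the smallest p possible is 0.0625, so this comparison could not reach 0.05. It also pools the positive pairs of 18 h with the negative pairs of 192 h, which cancel. The test therefore does not speak to either time alone.

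Nfkbil1, the IκB relative, gave 0.42, 0.08 and 0.54 in pairs 1, 3 and 4 at 18 h. At 72 h pairs 1 to 4 gave 0.10, -0.0037, -0.15 and -0.09. At 192 h they gave 0.23, -0.05, 0.03 and 0.42. All 3 complete pairs of 18 h were positive, as they were for 13.5% of all probes with at least 3 complete pairs at that time. The lowest pair of 18 h lay below the highest pairs of 72 and 192 h, so the times overlap. Limma's estimate was 0.35 ± 0.10 at 18 h (SE, n = 3), a 1.27-fold ratio. Its rank of 7 among 1362 probes by p follows from the choice of the gene at this time and is a description only.

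At the times that had no part in its choice, limma gave Nfkbil1 -0.03 ± 0.08 at 72 h (SE, 1 of 4 pairs positive, adjusted p = 0.995) and 0.16 ± 0.08 at 192 h (SE, 3 of 4 pairs positive, adjusted p = 0.997). Over the 8 pairs of both times the mean was 0.06 ± 0.18 (SD), with 4 positive. The exact two-sided sign-flip permutation test gave p = 0.438, where the smallest p possible is 0.0078. The estimate at 72 h minus that at 18 h was -0.38 ± 0.13 (SE), and at 192 h minus that at 18 h it was -0.19 ± 0.13 (SE). Both differences contain the 18 h value that chose the gene.

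Isg15, the interferon-induced modifier, gave -0.10, -0.05, 0.15 and 0.11 in pairs 1 to 4 at 18 h. It gave 0.18, 0.10 and 0.10 in pairs 1, 2 and 4 at 72 h. At 192 h pairs 2 and 3 gave 0.34 and -0.08. The 3 complete pairs of 72 h were all positive, the pattern of 9.03% of all such probes, while 18 and 192 h each had pairs on both sides of 0. The mean ratio was 0.03 ± 0.12 at 18 h (SD, n = 4), 0.13 ± 0.05 at 72 h (SD, n = 3) and 0.13 ± 0.30 at 192 h (SD, n = 2).

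The letters of an interferon element stand before the start of Isg15, and they are shown because Isg15 and other interferon-stimulated genes are compared here. The stretch is chr4:156200839-156200938 of GRCm38.p6, minus strand, from RefSeq, 5′ to 3′. Capitals mark 3 overlapping matches to GAAA, any 2 bases and GAAA on the strand of the gene, in bases 78 to 57 before its start.
Isg15: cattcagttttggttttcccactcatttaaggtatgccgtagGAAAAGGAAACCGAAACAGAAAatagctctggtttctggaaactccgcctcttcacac
Both strands of the 250 bases before each start were searched, and 2.98% of 32851 promoter windows held a match. Of 13 interferon-stimulated genes on the array with a window, 7 held one. Of the members with a window that was searched here, Nfkbil1, Tab3 and Gpr65 held none. A match describes the letters and shows no binding.

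The deposited ratio of a pair is the mean of a Cy5 and a Cy3 array. For 2 of the 5 genes those arrays differed in the same direction in every complete pair. Tab3 was lower when the tumor RNA carried Cy5, with a mean of -0.09 in that orientation and 0.22 in the other, and this held in 8 of 8 pairs. Gpr65 was higher when the tumor RNA carried Cy5, with means of 0.11 and -0.08 in the same order, again in 8 of 8 pairs. Tested over the 3946 probes with at least 6 complete pairs, the orientation difference (tumor in Cy5 minus tumor in Cy3) was -0.32 ± 0.07 for Tab3 (SE, limma, adjusted p = 0.0044) and 0.19 ± 0.06 for Gpr65 (SE, limma, adjusted p = 0.033). Of all 3946 probes, 1006 passed this test (25.5%), so a dye difference was common on these arrays. A dye difference of this kind cancels in the mean of a complete pair.

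In Tab3, the ratio changed sign between the orientations in 4 of 8 pairs. At 72 h, the arrays with the tumor RNA in Cy5 gave 0.01, -0.09 and -0.07 in pairs 1, 2 and 4, while those with it in Cy3 gave 0.32, 0.64 and 0.20. The sign of its pair means at 72 h was thus that of the Cy3 arrays. Which orientation lay nearer to the tumor effect was not tested. In Gpr65 at 72 h, the Cy5 orientation gave 0.0059, 0.0026 and 0.03, and the Cy3 orientation -0.23, -0.50 and -0.14. The sign of its pair means there was likewise that of the Cy3 arrays.

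Isg15, Nfkbil1 and Sting1 did not pass the test of the orientation difference. For Isg15 the difference was 0.15 ± 0.07 (SE, limma, adjusted p = 0.131), positive in 6 of 9 pairs. For Nfkbil1 it was -0.02 ± 0.12 (SE, limma, adjusted p = 0.893), and for Sting1 0.02 ± 0.07 (SE, limma, adjusted p = 0.889). Nfkbil1 had arrays at both ends in either orientation. At 18 h its Cy5 arrays gave 0.89, 0.30 and 0.18 in pairs 1, 3 and 4, and its Cy3 arrays -0.04, -0.13 and 0.90. Only pair 4 was positive in both orientations at that time. Pair 2 at 18 h was measured in the Cy3 orientation alone, at 0.71. The number of complete pairs with the same sign in both orientations was 7 of 11 for Nfkbil1, 5 of 9 for Isg15, 4 of 8 for Tab3, 2 of 8 for Gpr65 and 2 of 6 for Sting1.

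**Figure D2:**
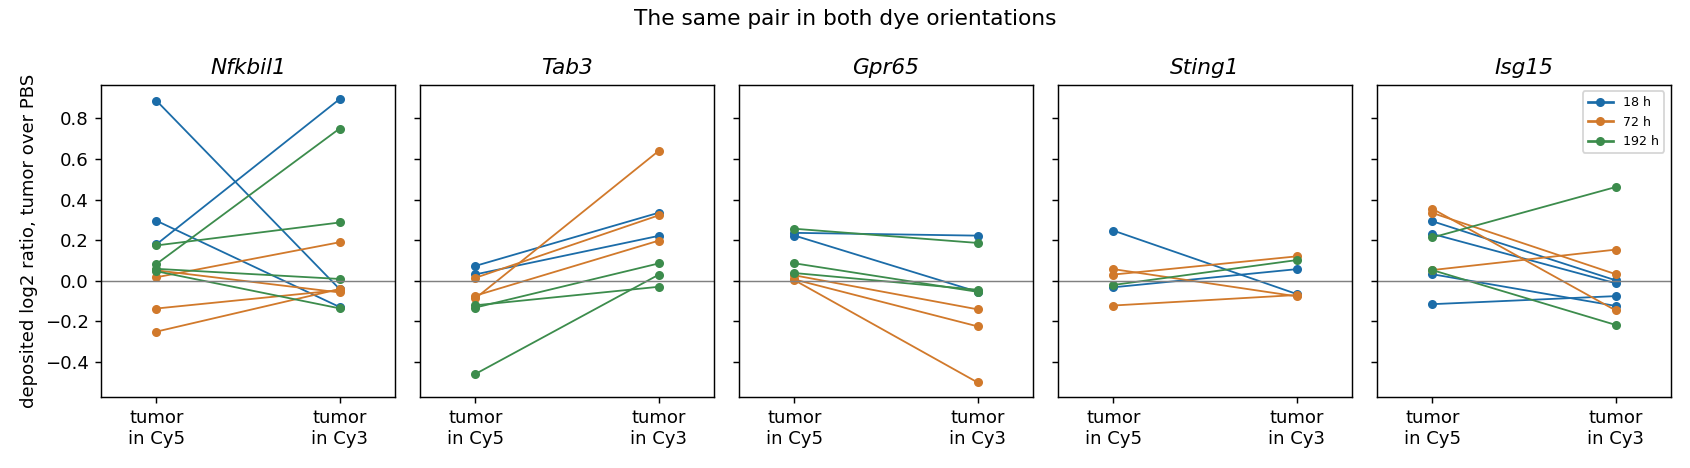
Each line joins the 2 arrays of 1 complete pair, with the tumor RNA in Cy5 on the left and in Cy3 on the right, and colours give the time. The vertical axis is the deposited log2 ratio of tumor over PBS. All 8 lines of Tab3 run upward and all 8 of Gpr65 downward, while lines of Nfkbil1, Sting1 and Isg15 run both ways.

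All 5 probes were dim against their local background. The median of all measured spots on an array was low as well, and its range is given with the processing. Low brightness is thus not particular to these genes, and whether they were dimmer than other probes was not tested. In the middle of the 3 scans of each array, the net intensity of Nfkbil1 was a median of 0.90 times the local background in the tumor channel and 0.97 times in the PBS channel, over 20 arrays. The medians of Tab3 were 0.92 in the tumor channel and 1.04 in the PBS channel over 17 arrays, and those of Gpr65 were 0.96 and 0.84 over 19 arrays. For Isg15 they were 0.90 in the tumor channel and 1.03 in the PBS channel over 19 arrays. Sting1 was the dimmest against its background, at 0.73 in the tumor channel and 0.80 in the PBS channel over 15 arrays. The net signal was thus below the local background on many arrays, for example on 12 of 15 in the tumor channel of Sting1. The ranges of the channels overlapped for each gene.

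At 18 h, the tumor channel of Nfkbil1 had net intensities of 0.83 to 2.22 times background over 5 arrays, with a median of 0.86. The PBS channel had 0.55 to 1.26 on the same arrays, with a median of 0.70. At 72 h the medians were 0.83 in the tumor channel and 1.10 in the PBS channel, and at 192 h they were 1.08 and 0.88. These values are before any correction between the channels, and they overlap at each time.

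**Figure D3:**
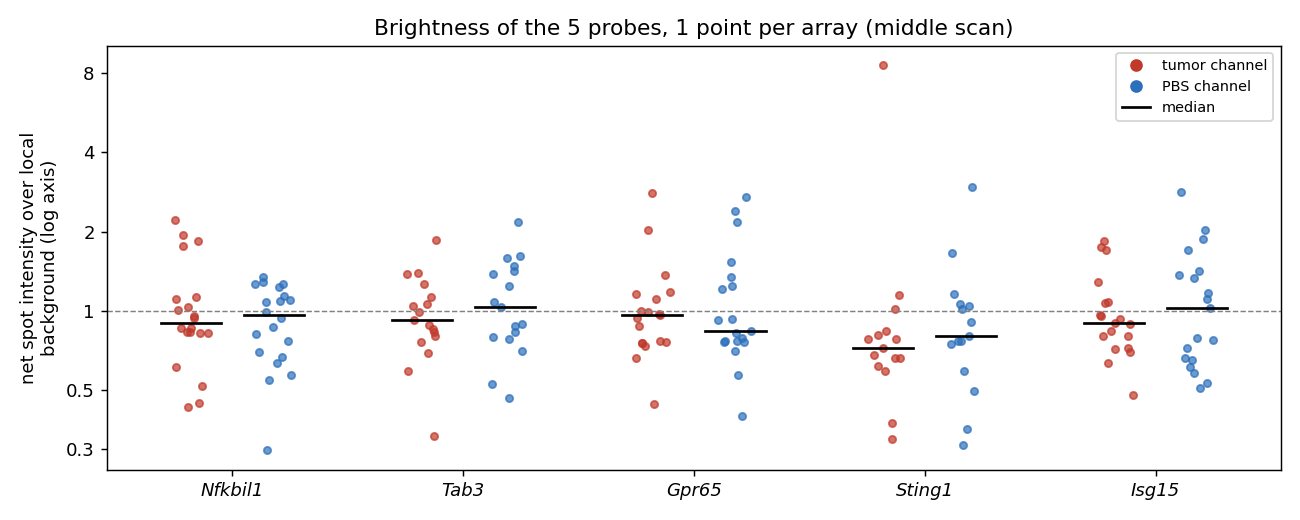
Each point is 1 array in its middle scan, with the tumor channel left of the PBS channel for each gene, and black bars are medians. The vertical axis is the net spot intensity over the local background, on a log axis, and the dashed line marks a net signal equal to background. Medians lie between 0.73 and 1.04, and 1 tumor value of Sting1 stands at 8.56.

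Ratios computed anew from the background-corrected scan intensities, with loess within each array, were larger than the deposited ones. Per array, the SD of the deposited ratios was 0.30 to 0.65 times that of the scan ratios. It was 0.76 to 1.23 times the SD of ratios from scan intensities without background subtraction. From background-corrected scans Nfkbil1 averaged 1.33 ± 0.42 at 18 h (SD, n = 3), 0.31 ± 0.64 at 72 h and 0.45 ± 0.44 at 192 h (SD, n = 4 each). Its pairs 1, 3 and 4 at 18 h gave 1.23, 0.97 and 1.80. The order of the times was that of the deposited ratios, with 1.33 in place of 0.35 at 18 h.

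On 2 arrays Nfkbil1 had far larger scan ratios than on their dye-swapped partners. Pair 4 at 18 h had a scan ratio of -0.04 with the tumor RNA in Cy5 and 3.64 with it in Cy3. The second of these arrays gave a value in 1 of 3 scans, because the PBS channel was not measured in the other 2. Pair 2 at 72 h had -0.14 in the Cy5 orientation and 2.07 in the Cy3 orientation, where the PBS channel was likewise unmeasured in 2 of 3 scans. Without pair 4 the scan mean at 18 h was 1.10, and without pair 2 the scan mean at 72 h was 0.10, against 0.31 with it.

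For Gpr65 the scan ratios were 1.00, 0.25 and 1.19 in pairs 1, 3 and 4 at 18 h, with a mean of 0.81 ± 0.50 (SD, n = 3). Pair 1 had 1.77 with the tumor RNA in Cy5 and 0.23 in Cy3, and pair 4 had 0.30 and 2.08 in that order. The orientations of these 2 pairs thus differed in opposite directions, unlike those of the deposited complete pairs. The scan ratios of Gpr65 averaged -0.0018 ± 0.12 at 72 h and 0.18 ± 0.55 at 192 h (SD, n = 3 each). The mean at 72 h was thus near 0 in these scan ratios, where the deposited mean was negative. From uncorrected scans with print-tip loess it was -0.04, and over 13 alternatives it lay between -0.18 and -0.0018. Tab3 averaged 0.24 ± 0.05 at 18 h, 0.45 ± 0.17 at 72 h and -0.07 ± 0.32 at 192 h (SD, n = 3 each) in the scans. Its pair 2 at 72 h had -0.09 with the tumor RNA in Cy5 and 1.38 in Cy3. Its pair 1 at 18 h differed the other way, at 0.63 in Cy5 and -0.04 in Cy3. At 192 h its pairs 3 and 4 turned positive in the scans, at 0.12 and 0.12, and pair 2 stayed negative at -0.43.

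Isg15 averaged 0.14 ± 0.23 at 18 h (SD, n = 4), 0.28 ± 0.35 at 72 h and 0.35 ± 0.05 at 192 h (SD, n = 3 each) in the scans. Its pairs 1, 2 and 3 at 192 h gave 0.35, 0.41 and 0.30. The orientations behind them differed, at 0.89, 0.65 and 0.50 with the tumor RNA in Cy5 and -0.18, 0.16 and 0.10 in Cy3. Pair 4, measured in the Cy3 orientation alone, gave -0.37. Over all measured arrays, the scan means at 18, 72 and 192 h were 0.43, 0.64 and 0.68 in Cy5. Those in Cy3 were -0.15, -0.22 and -0.07. This orientation difference in the scans was not tested. Pair 3 had been -0.08 in the deposited table, and pair 1 had a deposited value in 1 orientation only.

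Sting1 averaged 0.63 ± 0.78 at 192 h in the scans (SD, n = 3), and this rests on pair 4. Its pairs 2, 3 and 4 gave 0.05, 0.32 and 1.51. The arrays of pair 4 gave 1.02 with the tumor RNA in Cy5, in 1 of 3 scans, and 2.00 with it in Cy3. On the array of pair 4 with the tumor RNA in Cy3, the saturation factor of the spot was between 0.35 and 0.41 in the 3 scans, where 1 means no saturated pixels, and the deposited table gives no ratio there. This spot is the tumor value of 8.56 times background. Without pair 4 the scan mean was 0.19. At 18 and 72 h the scan means of Sting1 were 0.10 ± 0.14 and -0.02 ± 0.09 (SD, n = 3 each).

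**Figure D4:**
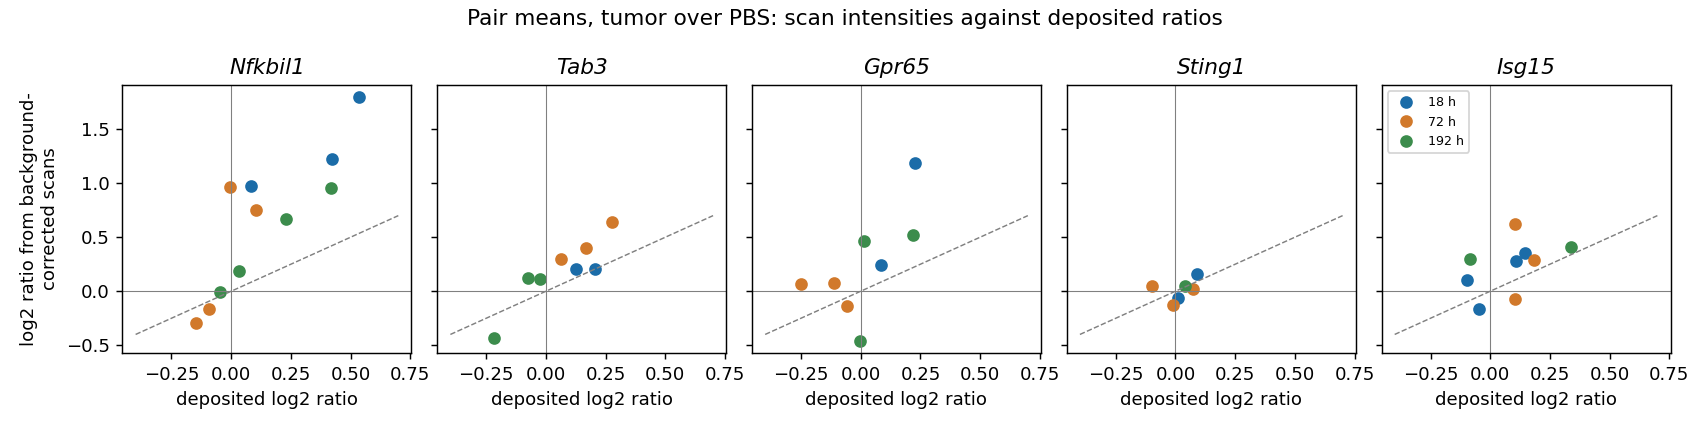
Each point is 1 pair with both values, the deposited log2 ratio on the horizontal axis and the log2 ratio from background-corrected scans on the vertical axis, and the dashed line marks equal values. For Nfkbil1 the 3 points of 18 h lie between 0.97 and 1.80 in the scans and between 0.08 and 0.54 in the deposited table. Several points of Gpr65, Tab3 and Isg15 have opposite signs on the 2 axes.

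Across pairs, the deposited ratios of Nfkbil1 and Gpr65 had a Pearson r of 0.78 and a Spearman rho of 0.60 over their 8 shared complete pairs. These pairs share arrays and their normalization, and the genes were both chosen at 18 h. The other 9 combinations of the 5 genes had Pearson r between -0.40 and 0.22 over 6 to 8 pairs. Among the 705 other named probes with at least 10 pairs in common with Nfkbil1, the highest Pearson r were 0.81 for Plet1, 0.81 for Atraid and 0.75 for Anapc5, each over 10 pairs. The other 4 genes had too few complete pairs for this comparison.

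Few genes of the surrounding pathways were measured well enough for the test, and 0 of them were called. Of 28 genes of TAK1 and NF-κB signalling on the array, 3 were tested, with a median log2 ratio of -0.02 at 18 h, 0.05 at 72 h and -0.01 at 192 h. These were the NF-κB subunits Rela and Relb and the nuclear IκB protein Bcl3. Rela gave 0.08 ± 0.06, -0.11 ± 0.06 and 0.07 ± 0.06 at 18, 72 and 192 h (SE, n = 3 each), with limma adjusted p of 0.785, 0.958 and 0.997. Of 14 genes of proton sensing and cyclic AMP signalling on the array, 2 were tested, with medians of 0.03, 0.05 and -0.04 at the 3 times. Gpr132, another receptor of the family of Gpr65, gave 0.15 ± 0.08, 0.12 ± 0.07 and 0.03 ± 0.07 (SE) at 18, 72 and 192 h. Gnas, the gene of the stimulatory G protein, gave -0.10 ± 0.11, -0.0087 ± 0.13 and -0.10 ± 0.11 (SE) at these times.

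Of 20 genes of nucleic acid sensing and interferon signalling on the array, 5 were tested, and 4, 3 and 4 of them were positive at 18, 72 and 192 h. Irf3, the factor downstream of Sting1, gave -0.06 ± 0.04 at 18 h, -0.02 ± 0.04 at 72 h and -0.0057 ± 0.04 at 192 h (SE), with limma adjusted p of 0.785, 0.995 and 0.997. Of 18 interferon-stimulated genes on the array other than Isg15, 3 were tested, namely Ifi27, Isg20 and Ifitm2. Their median was 0.05 at 18 h, 0.06 at 72 h and -0.05 at 192 h, against -0.01 for all tested probes at each time. All 3 were positive at 72 h, between 0.04 and 0.09, and all 3 negative at 192 h, between -0.06 and -0.0079. The genes that attach or remove Isg15 were not complete enough for the test.

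With 1 orientation of a pair counted as enough, 4890 probes were tested and 0 passed an adjusted p of 0.05 (0%), with 273, 315 and 192 at an unadjusted p under 0.05 (5.58%, 6.44% and 3.93%). In this version a dye difference does not cancel where an orientation is missing. Uba7, the enzyme that activates Isg15 for conjugation, gave 0.13 ± 0.05 at 18 h (SE, n = 3, limma adjusted p = 0.846). Usp18, which removes Isg15 from proteins, gave -0.05 ± 0.05, and Trim25 -0.00061 ± 0.07 at 18 h (SE, n = 3 each). Irf7, an interferon regulatory factor that interferons induce, gave 0.25 ± 0.05 at 18 h (SE, n = 3, limma adjusted p = 0.607), -0.03 ± 0.04 at 72 h and 0.03 ± 0.05 at 192 h. Of 15 NF-κB target genes on the array, 6 were tested in this version, with medians of -0.05, -0.03 and 0.09 at the 3 times. Lcn2, an acute-phase target, gave -0.10 ± 0.36, -0.31 ± 0.36 and 0.66 ± 0.36 at 18, 72 and 192 h (SE, n = 4 each, limma adjusted p = 0.987, 0.938 and 0.997).

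Markers of the cells that could carry these genes were also thin on the array. Of 10 macrophage and Kupffer cell markers on the array 4 were tested, and 4, 3 and 3 of them were positive at 18, 72 and 192 h, with medians of 0.05, 0.05 and 0.03. Marco, a scavenger receptor of macrophages, gave 0.41 ± 0.17 at 72 h (SE, n = 3, limma adjusted p = 0.935). Clec4f, a Kupffer cell lectin, gave 0.09 ± 0.10, -0.02 ± 0.11 and 0.02 ± 0.10 at the 3 times (SE). The 4 markers, Marco included, lay between 0.02 and 0.09 at 18 h and between -0.05 and 0.16 at 192 h. Of 7 neutrophil markers 2 were tested, with medians of 0.0035, -0.00060 and 0.06. The endothelial lectin Clec4g gave -0.14 ± 0.06 at 18 h (SE, n = 4, limma adjusted p = 0.626), 0.02 at 72 h and 0.03 at 192 h. The liver genes Hnf4a and Pck1 were measured in both orientations of at least 3 pairs at each time. Pck1, a gluconeogenic enzyme of hepatocytes, gave -0.49 ± 0.20 at 18 h (SE, n = 4, limma adjusted p = 0.626), and Hnf4a gave -0.04. The lower and higher of these 2 genes were at -0.02 and 0.04 at 72 h, and at -0.05 and 0.09 at 192 h. No T cell, B cell, NK cell or stellate marker was measured in enough pairs for this test, and 0 of 5 listed erythroid markers were on the array. With 1 orientation counted as enough, 2 T cell, 2 B cell, 1 NK cell and 2 stellate markers were tested, and 0 were called. The part of any cell type in the ratios of the 5 genes was not tested.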

How the data were processed

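Liver RNA of tumor and PBS mice was hybridised on 2-colour arrays in 12 dye-swapped pairs, grouped by the labels. The deposited series table holds the authors' log2 ratios, already turned the same way in both orientations. Their scale, centring and direction are unstated, and they had a Pearson r per array of 0.59 to 0.91 with ratios of scans without background subtraction and of 0.51 to 0.84 with background-corrected ones. The SD of the deposited ratios lay closer to that of the uncorrected ones. Per the file headers, each of 3 scans per array gives background-corrected intensity for channels A and B, and marks saturation by a fraction from 0 to 1 in the deposited tables. The image software is not given in the sources used here. Median total over background intensity in the middle scan was 1.65 to 2.50 in channel A and 1.42 to 2.74 in channel B, which limits precision, as does the number of arrays.

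The main values were the deposited log2 ratios averaged over both orientations, so that a pair was 1 replicate. Probes with both orientations in at least 3 of 4 pairs at each time were fitted with limma 3.58.1 (R 4.3.3, with version 1.17.8 of the data.table package) with a coefficient per time, and adjusted by Benjamini-Hochberg over all 1362. In simulated data for these 1362 probes, 100 were changed by 0.3 and 100 by 0.6 at each time. Of the changes of 0.3, 77%, 74% and 72% were recovered at 18, 72 and 192 h, with 8, 13 and 10 false calls. These shares hold for that many changed probes. They were not computed for fewer, where the adjustment is stricter, so they do not give the power in the real data. The orientation difference was tested by limma over probes with at least 6 complete pairs. The times that did not choose a gene were tested by an exact sign-flip permutation.

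Alternatives were loess (span 0.3), normexp (offset 50) or median centring of scan intensities, centred ratios, other filters, a dye coefficient, a replicate block, replicates 1 and 2 or 3 and 4 alone and leaving out each pair. Uncorrected print-tip loess, saturated spots left out, and scans without each pair were chosen after seeing the data. Of 10080 probes, 9066 had 1 gene symbol, 12 several and 1002 none listed, with symbols updated through RefSeq (GRCm38.p6) by Entrez identifier for 8977. Probe positions and sequences were not used here. The 5 genes were always named. From each gene list at each time, at most 3 genes with the smallest unadjusted p were named, and for genes with at least 10 complete pairs the 3 probes of highest r. The members and lists were chosen with earlier results of these data known.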

Additional observations from a re-analysis of the deposited data

Results flagged for a closer look

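In 2 genes, every complete pair moved one way at one time and the opposite way at another. Neither gene entered the fit over 1362 probes. Of all probes with at least 2 complete pairs at both times, 2.87% were positive in each pair of 18 h and negative in each of 72 h. The share was 3.17% for positive at 18 h and negative at 192 h, and 2.85% for positive at 72 h and negative at 192 h. For Tab3 the mean deposited log2 ratio at 192 h minus that at 18 h was -0.27, and minus that at 72 h it was also -0.27, with 3 of 3 pairs negative at 192 h and all 5 earlier pairs positive. With both orientations of 2 pairs at each time taken as enough, limma over 2957 probes gave Tab3 -0.27 ± 0.09 for 192 h minus 18 h (SE, adjusted p = 0.997). The difference from 72 h was not tested, since the 72 h value chose the gene. For Gpr65 the mean at 72 h minus that at 18 h was -0.30, with 3 of 3 pairs negative at 72 h and 2 of 2 positive at 18 h. The same limma fit gave -0.30 ± 0.10 (SE, adjusted p = 0.999), and this difference contains the 18 h value that chose Gpr65. In the deposited ratios, both genes differed between dye orientations in the same direction in 8 of 8 pairs. In scan ratios with loess, neither gene kept that direction in every pair. There, 2 of 3 Tab3 pairs at 192 h and 2 of 3 Gpr65 pairs at 72 h were positive. The part of dye or background in these differences was not tested.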

How the results depend on the processing

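The count of 0 called probes held at 18, 72 and 192 h and in both differences between times under every alternative run, the replicate block included, and it was 0 to 0 when each pair was left out. The replicate numbers did not pair the samples: deviations of same-numbered pairs correlated at -0.32 to 0.49, and others at -0.55 to 0.51. Over the pairs that had no part in its choice, Gpr65 had a mean of -0.03 that turned positive with scan intensities and loess (0.087, and 0.087 with saturated spots left out), with normexp (0.075), with median centring (0.030), with uncorrected print-tip loess (0.020) and with replicates 3 and 4 alone (0.053). With each pair left out it ranged from -0.081 to 0.013, that of Tab3 (0.0028) from -0.047 to 0.057 and that of Nfkbil1 (0.06) from 0.011 to 0.092. Tab3 turned negative without pair 3 or pair 4 at 18 h, and Gpr65 positive without pair 2 at 72 h (0.013). That of Nfkbil1 was 0.38 with scan loess, 0.30 with saturated spots left out, 0.76 with normexp, 0.35 with median centring and 0.13 with uncorrected print-tip loess, with exact sign-flip permutation p between 0.094 and 0.188. The cause was not tested. Normexp and median centring moved the median of all probes at 72 h to -0.12 and -0.27. The mean of Nfkbil1 at 18 h, the value that chose the gene, stayed positive in all 15 alternatives, between 0.25 and 2.11. At 72 h it changed sign in 7 of 15.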
